A study of Mus musculus with 36 samples.

Results

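The genes described here are 8 chemokines, an adhesion molecule and a growth factor of microglia that inflammatory signalling can induce: Ccl2, Ccl3, Ccl4, Ccl5, Cxcl10, Cxcl16, Cxcl12, Cx3cl1, Icam1 and Csf1. They were chosen by symbol with earlier results of these data known, and all 10 were found among the 24421 gene symbols measured. The measurements are RNA sequencing of polyadenylated RNA from mouse hippocampus. Treated mice had received a nanoligomer, which is a synthetic antisense oligomer with a peptide nucleic acid core, and the title of the series names NF-kB and NLRP3 as lowered. The old nanoligomer group held treated C57BL/6 mice of 18 months, the old group C57BL/6 mice of 18 months and the young group C57BL/6 mice of 8 months, both without nanoligomer. The APP/PS1 nanoligomer group held treated APP/PS1 mice of 4 months, the APP/PS1 group APP/PS1 mice of 4 months labelled as controls and the littermate group non-carriers of 4 months from the same litters. APP/PS1 mice are a transgenic model that forms amyloid plaques. The promoter of the transgenes, the line, the dose, the route and what control mice were given are not stated in the sources used here. Each group had 6 libraries, 3 of females and 3 of males. The labels do not say whether each library came from its own animal, so p-values measure the spread between these libraries.

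Chemokines are small secreted proteins that bind G protein-coupled receptors and direct the movement of leukocytes. Many of their genes, like Icam1 and Csf1, are switched on when NF-kB enters the nucleus after signals from cytokine or pattern recognition receptors, while Cxcl10 also responds strongly to interferons. In the brain, microglia, astrocytes and endothelial cells make the inflammatory members. Cx3cl1 is made by neurons and anchors to their membrane, where microglia read it through Cx3cr1, and Cxcl12 is a constitutive signal of several brain cell types.

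After female 3 of the treated APP/PS1 group was left out, 35 libraries remained with 27.6 to 46.3 M reads each. That library held 0.913 M reads, with 0 reads of 7 of the 10 genes and 24.1 CPM (counts per M reads) of Cxcl16, and it enters none of the 4 comparisons. The genotype labels were checked on App, which was at 2792 to 4327 CPM in APP/PS1 libraries, against 1653 to 1786 CPM in littermates. Reads of a transgene and of the mouse gene are not separated in the tables. Markers of hippocampal neurons were present in all 35 libraries, with a summed level of 413 to 1217 CPM over 10 of 10 markers. Their median sum was 939 CPM in young, 1108 CPM in old and 797 CPM in old nanoligomer libraries. It was 1033 CPM in littermate, 908 CPM in APP/PS1 and 930 CPM in APP/PS1 nanoligomer libraries. The lowest sums were 413 CPM in young male 1 and 450 CPM in old nanoligomer female 3. Next came 463 CPM in old male 3 and 490 CPM in APP/PS1 female 1. The part of these markers was not tested. Markers of the choroid plexus, a tissue next to the hippocampus, summed to between 14.0 and 4174 CPM, both extremes in young libraries.

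The 10 genes spanned a wide range of abundance. Per kilobase of annotated exon, Cx3cl1 had the highest median over the 35 libraries, at 199 CPM per kilobase, with a range of 150 to 266. Cxcl12 followed with a median of 10.4 (7.59 to 13.4) and Csf1 with 6.16 (4.05 to 10.5), and the ranges of these 2 genes overlapped. The other 7 genes were low: the medians per kilobase were 0.735 CPM for Icam1, 0.581 for Cxcl16, 0.362 for Ccl3, 0.176 for Cxcl10, 0.0822 for Ccl4, 0.0783 for Ccl5 and 0.0708 for Ccl2, and neighbours among these 7 had overlapping ranges. No read was counted for Ccl2 in 15 of the 35 libraries, for Ccl5 in 12, for Ccl4 in 10, for Ccl3 in 3 and for Cxcl10 in 2. A count of 0 allows up to 3 reads in a library, for counting error only. Even the highest library held only 42 reads of Ccl2, 42 of Ccl4 and 57 of Ccl5, so statements on these 3 genes rest on few reads.

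**Figure D1:**
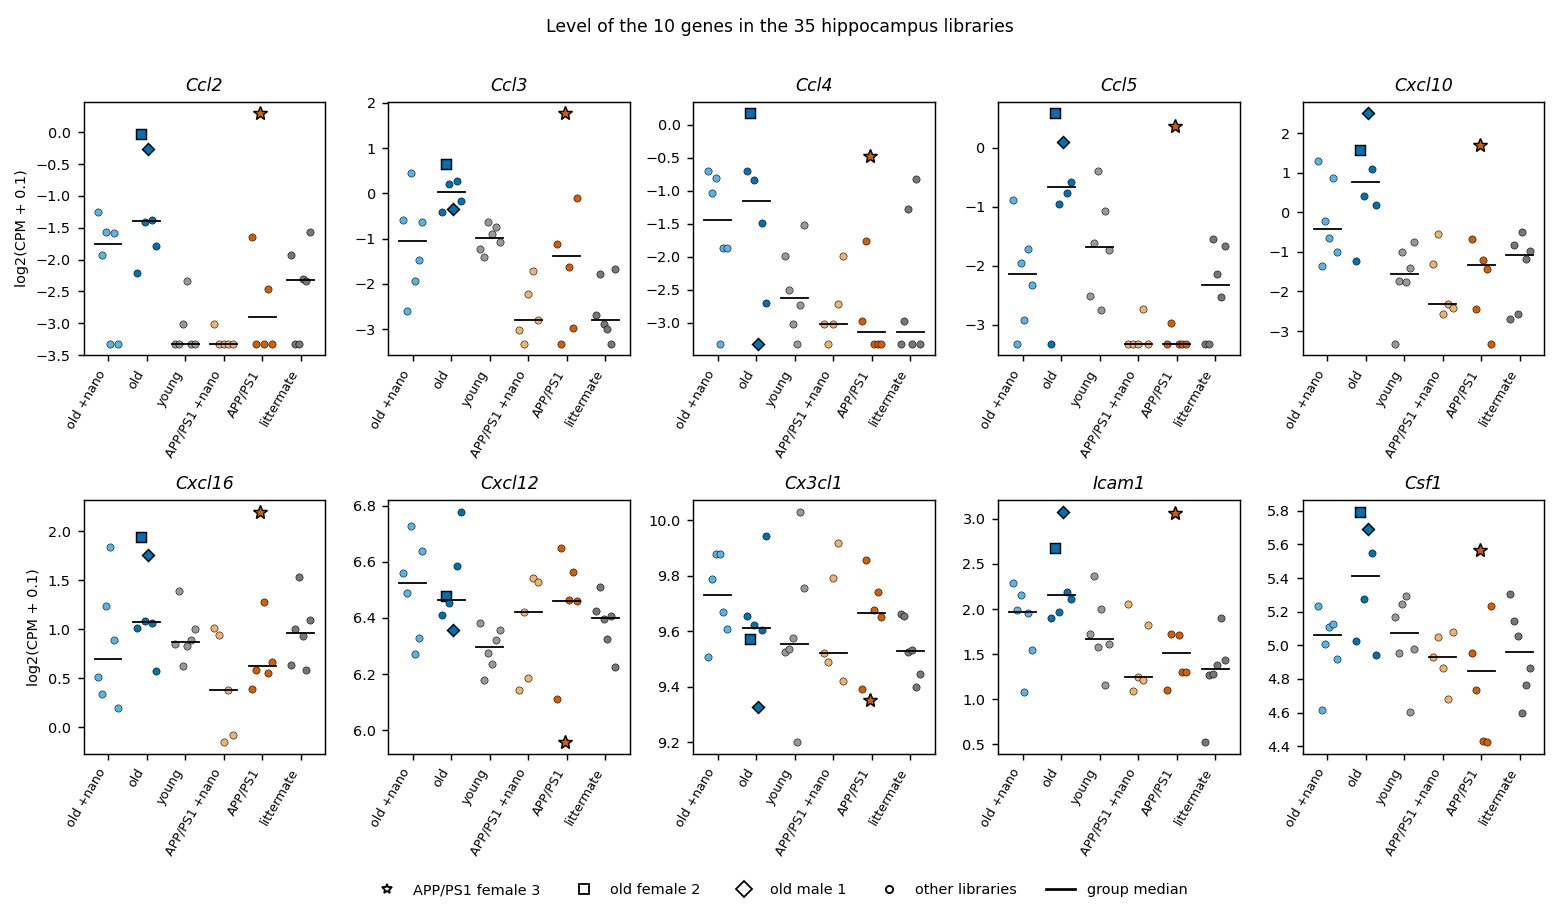
Level of each gene, as log2(CPM + 0.1), in the 35 libraries by group; points are libraries, black lines are group medians, "+nano" marks nanoligomer groups, and each panel has its own scale. A star marks APP/PS1 female 3, a square old female 2 and a diamond old male 1, which hold the 3 highest values of Ccl2, Cxcl10 and Icam1.

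On GRCm38, 5 of the genes lie on chromosome 11: Ccl2 from 82035571 to 82037453 on the plus strand, Ccl5 from 83525778 to 83530518 on the minus strand, Ccl3 from 83647844 to 83649355 on the minus strand, Ccl4 from 83662584 to 83664683 on the plus strand and Cxcl16 from 70453983 to 70459984 on the minus strand. Cxcl10 lies on chromosome 5 from 92346638 to 92348889 (minus), Cxcl12 on chromosome 6 from 117168535 to 117181367 (plus) and Cx3cl1 on chromosome 8 from 94772009 to 94782427 (plus). Icam1 lies on chromosome 9 from 21015985 to 21028817 (plus) and Csf1 on chromosome 3 from 107741048 to 107760469 (minus). All 10 are protein-coding, and their counts are over the whole gene. Exons of Cxcl10 overlap Art3, those of Cxcl16 overlap Zmynd15 and those of Icam1 overlap the antisense gene Gm47079, each on the opposite strand. Whether strand was used in counting is not given in the sources used here, so reads of these pairs may not be told apart.

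The 250 bases before the transcription start annotated by RefSeq were read for the 6 genes that had a promoter there on GRCm38.p6, namely Ccl3, Cxcl10, Cxcl12, Cx3cl1, Icam1 and Csf1. They are shown for Cxcl10, Icam1 and Csf1, which hold letters of an NF-kB site, and for Ccl3, an inflammatory chemokine in which no searched motif was found. Both strands were searched for the kappa-B consensus, for GGAAATTCC, which was added after the sequences had been seen, for the interferon-stimulated response element, GAAA with any 2 bases and a second GAAA, and for the AP-1 element TGANTCA. Capitals mark the matches, and each line runs 5′ to 3′ on the strand of the gene.
Cxcl10 promoter, chr5:92348890-92349139, minus strand: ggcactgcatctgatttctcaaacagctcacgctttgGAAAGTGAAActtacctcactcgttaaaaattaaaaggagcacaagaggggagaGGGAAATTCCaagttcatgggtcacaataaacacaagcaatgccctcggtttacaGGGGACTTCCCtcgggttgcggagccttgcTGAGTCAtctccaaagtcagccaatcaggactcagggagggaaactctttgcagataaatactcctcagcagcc
Icam1 promoter, chr9:21015690-21015939, plus strand: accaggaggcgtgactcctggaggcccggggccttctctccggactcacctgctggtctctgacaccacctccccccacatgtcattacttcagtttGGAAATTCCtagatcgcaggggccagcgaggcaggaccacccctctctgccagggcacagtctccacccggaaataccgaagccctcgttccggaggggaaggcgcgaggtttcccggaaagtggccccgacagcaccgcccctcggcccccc
Csf1 promoter, chr3:107760470-107760719, minus strand: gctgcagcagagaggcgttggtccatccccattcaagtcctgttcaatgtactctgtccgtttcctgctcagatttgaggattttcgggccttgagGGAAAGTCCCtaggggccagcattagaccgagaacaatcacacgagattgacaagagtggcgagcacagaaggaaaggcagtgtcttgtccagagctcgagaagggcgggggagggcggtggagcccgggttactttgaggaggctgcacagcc
Ccl3 promoter, chr11:83649379-83649628, minus strand: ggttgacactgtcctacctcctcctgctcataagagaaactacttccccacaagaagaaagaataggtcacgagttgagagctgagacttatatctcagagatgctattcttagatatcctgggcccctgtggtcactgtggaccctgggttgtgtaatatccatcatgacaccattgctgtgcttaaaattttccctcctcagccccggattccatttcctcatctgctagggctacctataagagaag

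Cxcl10 held a kappa-B match at 159 to 150 bases before its start, which overlaps a match to GGAAATTCC, and a pair of overlapping kappa-B matches between 104 and 94 bases. It also held the interferon element at 213 to 204 bases and the AP-1 element at 74 to 68 bases before its start. Icam1 held GGAAATTCC at 153 to 145 bases and no match to the kappa-B consensus, and Csf1 held a kappa-B match at 154 to 145 bases. Cxcl12 and Cx3cl1, like Ccl3, held none of these letters in this window. RefSeq starts can differ from the gene coordinates above, and the window of Cx3cl1, from 94771930 to 94772179, runs into the gene as placed from 94772009. Of all 32851 promoters searched the same way, 7.25% held the kappa-B consensus, 0.286% held GGAAATTCC, 2.98% the interferon element and 6.75% the AP-1 element. Since GGAAATTCC was added after the sequences had been seen, its share does not measure how unusual its matches here are.

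Some libraries stood apart in these genes. APP/PS1 female 3 was the highest of its group for 8 of the 10 genes and among the 3 highest of all 35 libraries for 8. Old female 2 was among the 3 highest of all libraries for 8 genes and old male 1 for 5. The same libraries stood out in lists of other genes. The 12 microglia markers, all present, summed to 1211 CPM in APP/PS1 female 3 and to 397 to 482 CPM in the other 5 APP/PS1 libraries. They summed to 795 CPM in old female 2 and 688 CPM in old male 1, against 545 to 611 CPM in the other 4 old libraries. The 20 genes of the interferon signature summed to 254 CPM in APP/PS1 female 3, 361 CPM in old female 2 and 385 CPM in old male 1, against 108 to 119 CPM in the other APP/PS1 and 126 to 200 CPM in the other old libraries. Gfap, the intermediate filament of astrocytes, stood at 2095 CPM in APP/PS1 female 3. Cxcl12 and Cx3cl1 were not high there: at 62.0 CPM, Cxcl12 had the lowest value of all 35 libraries, and Cx3cl1 had 654 CPM. The estimates of the genes over the filter and the counts of the gene lists are therefore given with and without these libraries. In bulk tissue, fewer cells of a type and less RNA per cell cannot be told apart.

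**Figure D2:**
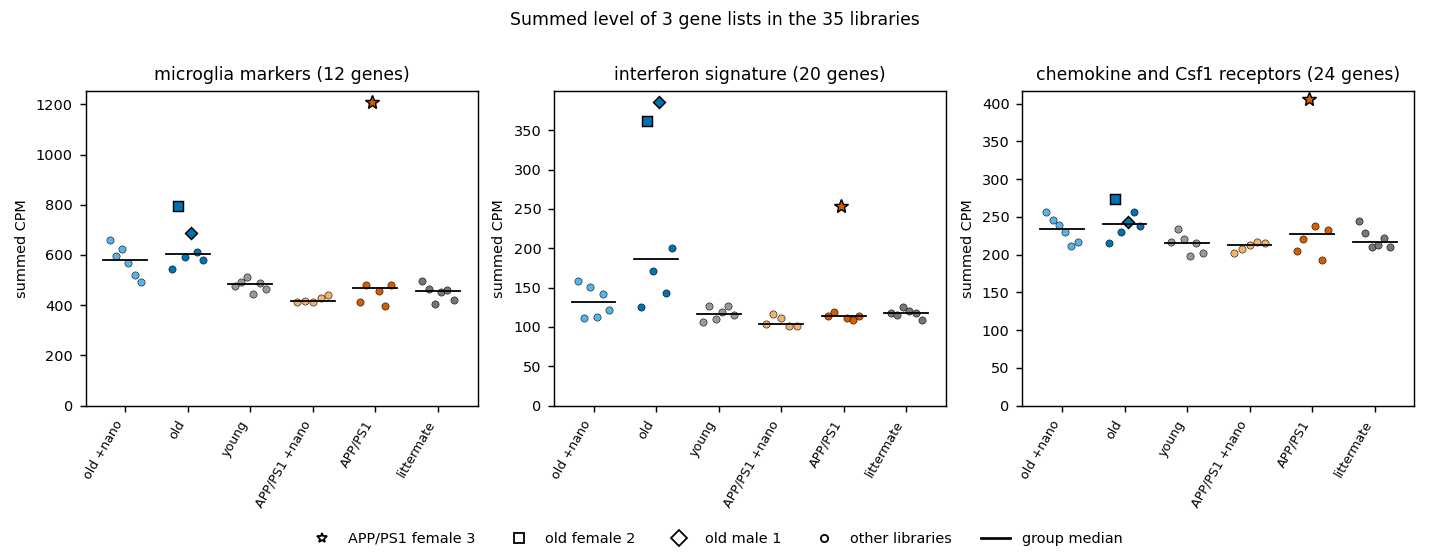
Summed CPM of 3 gene lists in the 35 libraries by group, on axes that start at 0; points are libraries and black lines are group medians. APP/PS1 female 3 (star) holds the highest microglia marker and receptor sums, and old male 1 (diamond) and old female 2 (square) hold the highest interferon sums, 385 and 361 CPM.

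The first comparison set old against young mice. All 10 genes had a higher mean in old than in young mice, and 0 of the 8 genes over the filter on low values passed limma, which called 0.0361% of the 16626 genes tested. Genes had to average at least 10 normalized counts to be tested, which left out Ccl2 and Ccl4, and were called at a Benjamini-Hochberg adjusted p under 0.05. The 8 estimates were all positive and their median was 0.48 on the log2 scale, while the median over all genes tested was -0.00385 and 48.6% of them were positive. At an unadjusted p under 0.05, 5 of the 8 were higher in old mice and 0 lower, against 3.37% of all genes tested higher, 2.77% lower and 6.13% in either direction. The genes were chosen with earlier results known, so shares over all genes do not measure how unusual the set is, here or below. DESeq2 called 2 of the 8, Ccl3 and Cxcl10, where it called 0.740% of all genes, and edgeR called 0, where it called 0.0361%. Other differences between the cohorts cannot be told apart from age.

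Among the inflammatory CC chemokines, Ccl2, the main attractant of Ccr2-positive monocytes, had a lowest, median and highest normalized count of 4.69, 11.5 and 35.1 in old libraries, against 0, 0 and 3.65 in young libraries. Every old library lay above every young library, and 4 of the 6 young libraries held no read. The lowest old library, female 1, held 5 reads and the highest young library, male 1, held 4, so the separation rests on very few reads. The exact permutation test within sex, two-sided, gave p = 0.005, the smallest that its 400 arrangements allow. With genes down to a mean of 1 tested, the log2 fold change of Ccl2 was 3.30 ± 0.582 (SE), with a limma adjusted p of 0.127 in a fit that called 0.0314% of genes, and the groups did not overlap, with old higher, for 0.362% of the 19082 genes. Ccl3, a ligand of Ccr1 made by activated microglia, had 26.3, 37.5 and 58.5 normalized counts in old libraries (lowest, median, highest), against 11.03, 15.8 and 22.0 in young libraries. The Ccl3 groups did not overlap either. Among the 8 genes over the filter Ccl3 was the only such gene, against 0.505% of all genes tested, or 0.403% with old higher. Its log2 fold change was 1.17 ± 0.282 (SE, n = 6 each; limma adjusted p = 0.342, DESeq2 adjusted p = 0.0328).

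Ccl4, a CC chemokine and neighbour of Ccl3, had 0, 14.7 and 40.9 normalized counts in old libraries (lowest, median, highest), against 0, 2.54 and 10.04 in young libraries. The Ccl4 groups overlapped, since old male 1 held no read, and the exact permutation test gave p = 0.04 on normalized counts and 0.145 on their log2. Ccl5, which draws T cells and monocytes, had 0, 21.7 and 55.5 normalized counts in old libraries, against 1.83, 8.53 and 26.8 in young libraries. The old group held both the lowest and the highest Ccl5 value, and the log2 fold change was 0.90 ± 0.914 (SE; limma adjusted p = 0.902). Single libraries moved the Ccl5 estimate, which was 0.46 without old female 2 and 1.75 without old female 1.

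Cxcl10, the interferon-induced ligand of Cxcr3, had the largest estimate of the 8 genes over the filter. It had 13.1, 67.4 and 223 normalized counts in old libraries (lowest, median, highest), against 0, 9.73 and 20.1 in young libraries. 5 of the 6 old libraries lay above all young ones, and old female 1 lay within their range. The log2 fold change was 2.94 ± 0.720 (SE; limma adjusted p = 0.346, DESeq2 adjusted p = 0.00157). Cxcl16, a transmembrane ligand of Cxcr6, had 56.1, 82.3 and 149 normalized counts in old libraries, against 58.4, 71.05 and 100.3 in young libraries. The Cxcl16 groups overlapped, with the lowest value in an old library, and the log2 fold change was 0.33 ± 0.239 (SE; limma adjusted p = 0.865).

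The abundant constitutive chemokines had small estimates. Cxcl12, the ligand of Cxcr4 and Ackr3, had 3274, 3550 and 4444 normalized counts in old libraries (lowest, median, highest), against 2836, 3209 and 3386 in young libraries. 5 of the 6 old libraries lay above all young ones and old male 1 below 3 of them, with a log2 fold change of 0.23 ± 0.0780 (SE; limma adjusted p = 0.654). Cx3cl1, or fractalkine, had 25677, 32146 and 39875 normalized counts in old libraries, against 22152, 30389 and 43362 in young libraries. The old Cx3cl1 values lay inside the young range, with a log2 fold change of 0.03 (95% limits -0.29 and 0.35).

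Icam1, the endothelial and glial ligand of the leukocyte integrins LFA-1 and Mac-1, had 146, 178 and 333 normalized counts in old libraries (lowest, median, highest), against 88.4, 125 and 202 in young libraries. Old male 1 and old female 2 lay above all young libraries, the other 4 old libraries lay within the young range, and the log2 fold change was 0.60 ± 0.237 (SE; limma adjusted p = 0.735). Csf1, a ligand of Csf1r that microglia need to survive, had 1242, 1752 and 2203 normalized counts in old libraries, against 1003, 1360 and 1529 in young libraries. The Csf1 groups overlapped, and the log2 fold change was 0.36 ± 0.157 (SE; limma adjusted p = 0.810).

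**Figure D3:**
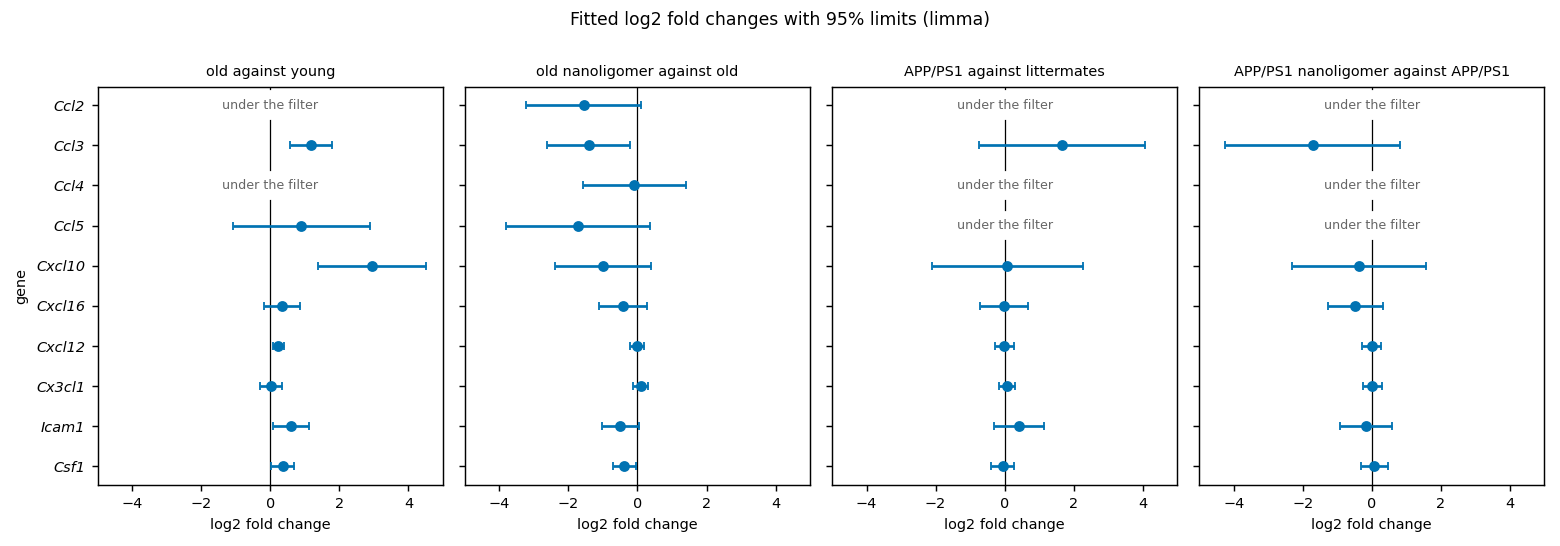
Fitted log2 fold changes of the 10 genes with 95% limits from limma in the 4 comparisons; the vertical line marks 0, and genes that averaged under 10 normalized counts are marked as under the filter. In old against young mice the limits of Ccl3, Cxcl10, Cxcl12, Icam1 and Csf1 lie above 0, and in old nanoligomer against old mice those of Ccl3 and Csf1 lie below 0, before adjustment over all genes.

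Without old female 2 and old male 1, a choice made after seeing the data, 3 of the 8 genes had an unadjusted p under 0.05, against 5.13% of all genes tested in that fit, and the median of the 8 log2 fold changes was 0.24. Cxcl10 stood at 2.27 ± 0.764, Ccl3 at 1.12 ± 0.303 and Cxcl12 at 0.29 ± 0.0814 (SE). Icam1 then stood at 0.33 ± 0.211, Csf1 at 0.18 ± 0.151 and Cx3cl1 at 0.13 ± 0.160. Ccl5 stood at 0.14 ± 0.989 and Cxcl16 at 0.03 ± 0.202. For Icam1, Csf1, Ccl5 and Cxcl16 the estimate was thus smaller by over 1.5 times than the one with both libraries. Both libraries were high for these genes, so leaving them out had to lower the estimates.

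Markers of other cell types were read beside these values. Microglia markers summed to 545 to 795 CPM in old libraries, against 445 to 511 CPM in young libraries, with no overlap and all 12 markers present in both groups. The 10 choroid plexus markers summed to 24.1 to 250 CPM in old libraries with a median of 106, against 14.0 to 4174 CPM in young libraries with a median of 1331. The 10 markers of meningeal fibroblasts had a median sum of 188 CPM in old and 254 CPM in young libraries. Both of these lists overlapped between the groups, as did the next 3. The 10 brain endothelium markers summed to 274 to 412 CPM in old and 271 to 332 CPM in young libraries, the 10 monocyte and neutrophil markers to 1.35 to 24.3 CPM in old and 0.551 to 23.03 CPM in young libraries. T and NK cell markers, of which 10 of 12 were in the tables, summed to 2.56 to 9.99 CPM in old and 2.44 to 23.8 CPM in young libraries, where Cd3d and Gzma were at 0. Their part in the values of the 10 genes was not tested.

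Related genes were read from lists chosen with earlier results of these data known, and limma called no gene of any list in old against young mice. The interferon signature was positive for 20 of 20 genes tested, a median of 1.18 on the log2 scale and 18 genes at an unadjusted p under 0.05, and DESeq2 called 10 of them. Without old female 2 and old male 1 its median was 0.77, and 13 genes were at an unadjusted p under 0.05. Oas2, an antiviral synthetase, and Ifitm3, which blocks the entry of viruses, had the smallest p values of the list, and for Oas2 the groups did not overlap. Of 13 other chemokines tested, 12 were positive with a median of 0.60, and without old female 2 and old male 1 it was 9 of 11 with a median of 0.28. Ccl12, a Ccr2 ligand of mice, averaged 34.1 ± 35.9 normalized counts in old and 5.77 ± 2.52 in young libraries (SD, n = 6 each), with a limma adjusted p of 0.665 and a DESeq2 adjusted p of 0.0464. Ccl9, a Ccr1 ligand of mice, averaged 56.5 ± 12.9 in old and 36.9 ± 9.02 in young libraries (SD), with a limma adjusted p of 0.654.

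Of the 13 receptors tested, 9 had a positive estimate, and 7 of 12 did without old female 2 and old male 1. The estimates of the microglial receptors were small: 0.22 ± 0.0787 for Csf1r and 0.27 ± 0.105 for Cx3cr1 on the log2 scale (SE). The partners of Icam1 were in a list of 15 genes tested, 11 of them positive, and 10 of 16 without old female 2 and old male 1. Itgb2, the beta chain shared by LFA-1 and Mac-1, averaged 444 ± 95.6 normalized counts in old and 307 ± 54.5 in young libraries (SD, limma adjusted p = 0.489). Itgax, the alpha chain CD11c, averaged 86.4 ± 72.7 in old and 18.1 ± 8.43 in young libraries, with a limma adjusted p of 0.202 and a DESeq2 adjusted p of 0.000375. Of 22 other genes induced by NF-kB, 19 were positive with a median of 0.14, and 17 of 22 with a median of 0.15 without old female 2 and old male 1. Lcn2, an acute phase protein of reactive astrocytes, had the largest named estimate, 3.34 ± 1.04 (SE; limma adjusted p = 0.591, DESeq2 adjusted p = 0.0349), and Bcl3, a nuclear IkB protein, stood at 1.11 ± 0.354.

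The second comparison set old nanoligomer mice against old mice, and it shares the old libraries with the first. Of the 10 genes, which all passed the filter here, 9 had a negative estimate and 0 were called, where limma called 0% of the 16517 genes tested. Ccl2 and Ccl5 passed the filter only through old mice, at means of 15.56 and 24.04 normalized counts. Their means in treated mice were 5.94 and 5.86, and both are among the 9 negative estimates. The median of the 10 was -0.46 on the log2 scale, beside -0.00339 over all genes tested, of which 49.0% were positive. At an unadjusted p under 0.05, Ccl3 and Csf1 were lower, 2 of 10, and 0 were higher, against 3.60% of all genes tested lower, 3.62% higher and 7.22% in either direction. DESeq2 called 0 of the genes, where it called 0.0121% of all genes, and edgeR also called 0, where it called 0%. The 2 groups overlapped for all 10 genes, while 0.254% of all genes tested did not overlap, 0.121% with treated mice higher and 0.133% with them lower.

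Ccl3 had 2.46, 15.4 and 45.9 normalized counts in old nanoligomer libraries (lowest, median, highest), against 24.6, 35.04 and 54.6 in old libraries. 5 of the 6 treated libraries lay below all old ones, and treated female 3 lay among the highest. The log2 fold change of Ccl3 was -1.41 ± 0.557 (SE, n = 6 each; limma adjusted p = 0.678). Csf1 had 926, 1234 and 1419 normalized counts in old nanoligomer libraries, against 1161, 1638 and 2056 in old libraries. The Csf1 groups overlapped, with the 4 highest values in old libraries, and the log2 fold change was -0.38 ± 0.152 (SE; limma adjusted p = 0.678).

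The largest estimates belonged to genes of few reads. Ccl5 had 0, 4.77 and 16.7 normalized counts in old nanoligomer libraries (lowest, median, highest), against 0, 20.3 and 51.8 in old libraries, with a log2 fold change of -1.73 ± 0.963 (SE; limma adjusted p = 0.689). Ccl2 had 0, 7.38 and 12.05 normalized counts in old nanoligomer libraries, against 4.39, 10.7 and 32.7 in old libraries, with a log2 fold change of -1.56 ± 0.772 (SE; limma adjusted p = 0.679). For both genes the 2 highest values were those of old female 2 and old male 1. Cxcl10 had 11.1, 24.1 and 89.0 normalized counts in old nanoligomer libraries, against 12.3, 63.1 and 208 in old libraries, with a log2 fold change of -1.002 ± 0.649 (SE; limma adjusted p = 0.720). Treated female 1 and treated male 2 lay within the upper range of old libraries for Cxcl10, so the groups overlapped broadly. Ccl4 had a log2 fold change of -0.09 ± 0.691 (SE) by limma and -0.25 by edgeR, with 0 to 19.5 normalized counts in old nanoligomer and 0 to 38.2 in old libraries.

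Icam1 had 76.1, 145 and 181 normalized counts in old nanoligomer libraries (lowest, median, highest), against 137, 167 and 312 in old libraries. Treated male 1 and treated male 3 lay below all old libraries, the other 4 treated libraries overlapped with them, and the log2 fold change was -0.50 ± 0.245 (SE; limma adjusted p = 0.679). Cxcl16 had 40.0, 58.1 and 132 normalized counts in old nanoligomer libraries, against 52.4, 76.9 and 139 in old libraries, with a log2 fold change of -0.42 ± 0.323 (SE). For the abundant chemokines the log2 fold change was -0.01 for Cxcl12 (95% limits -0.21 and 0.19) and 0.10 for Cx3cl1 (95% limits -0.12 and 0.31).

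Without old female 2 and old male 1, Ccl2 and Ccl5 no longer averaged 10 normalized counts. Of the 8 genes left, 7 were negative with a median of -0.22, and 0 had an unadjusted p under 0.05, against 4.19% of all genes tested in that fit. Ccl3 stood at -1.35 ± 0.675 (SE), close to its value with them. Cxcl10 stood at -0.34 ± 0.655, Icam1 at -0.23 ± 0.223, Csf1 at -0.21 ± 0.143 and Cxcl16 at -0.12 ± 0.338, each nearer to 0 by over 1.5 times. Both left-out libraries were high for these genes, so leaving them out had to raise these estimates. Ccl4 stood at -0.34 ± 0.709, Cxcl12 at -0.07 ± 0.105 and Cx3cl1 at 0.00 ± 0.0966. Microglia markers summed to 494 to 658 CPM in old nanoligomer libraries, against 545 to 795 CPM in old libraries, with all 12 markers present. The part of these markers was not tested.

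Of the lists, the interferon signature was negative for 20 of 20 genes, a median of -0.87 on the log2 scale and 13 genes at an unadjusted p under 0.05, and its sums were 111 to 159 CPM in old nanoligomer libraries, against 126 to 385 CPM in old libraries. Limma called none of its genes, and DESeq2 called Zbp1, a sensor of Z-form nucleic acids. Zbp1 averaged 9.04 ± 6.52 normalized counts in old nanoligomer and 59.1 ± 51.8 in old libraries (SD, n = 6 each; limma adjusted p = 0.678, DESeq2 adjusted p = 0.0338). Irf7, the master regulator of interferon genes, averaged 123 ± 59.5 in old nanoligomer and 353 ± 190 in old libraries (SD; limma adjusted p = 0.678). Without old female 2 and old male 1, all 20 genes were still negative, with a median of -0.51 and 5 genes at an unadjusted p under 0.05.

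In the other lists the medians lay nearer to 0. Of 15 integrin, adhesion and sheddase genes tested, 14 were negative with a median of -0.16, and Itgax averaged 34.4 ± 24.7 normalized counts in old nanoligomer and 80.8 ± 67.8 in old libraries (SD; limma adjusted p = 0.678). F11r, a junctional adhesion molecule, had a log2 fold change of -0.31 ± 0.133 (SE). Of 22 other genes induced by NF-kB, 17 were negative with a median of -0.12, among them the IkB family members Nfkbiz at -0.34 ± 0.168 and Nfkbie at -0.46 ± 0.263 (SE). Without old female 2 and old male 1 the integrin list was negative for 10 of 15 genes with a median of -0.09 and the list of NF-kB induced genes for 15 of 22 with a median of -0.04. In the same fit the other chemokines were positive for 6 of 12 genes with a median of 0.05, and the receptors for 7 of 12 with a median of 0.03. Of the 14 other chemokines tested 7 were negative and 7 positive: Cxcl5, a neutrophil attractant, stood at -1.18 ± 0.531 and Ccl27a at 0.35 ± 0.188 (SE). Of 13 receptors, 8 were negative, with Csf1r at -0.11 ± 0.0834 and Ccr2 at -0.91 ± 0.714 (SE). Limma called 0 genes of these 4 lists, as did edgeR and DESeq2.

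The third comparison set APP/PS1 mice against their littermates. Group means were higher in APP/PS1 mice for 9 of the 10 genes, all but Csf1, with APP/PS1 female 3 the highest of its group for 8. Without that library, the means were higher for 4 of the 10, Ccl3, Cxcl12, Cx3cl1 and Icam1. Of the 7 genes over the filter, limma gave 4 positive and 3 negative estimates, while edgeR and DESeq2 gave 6 positive ones, all but that of Csf1. Ccl3 passed the filter only through APP/PS1 mice, at a mean of 28.7 normalized counts, against 3.20 in littermates. The median of the 7 limma estimates was 0.08 on the log2 scale, and 0 genes were called, where limma called 0.0486% of the 16475 genes tested. Of all genes tested, 50.3% had a positive estimate. By limma, no gene of the 7 had an unadjusted p under 0.05, against 10.2% of all genes tested, 4.72% higher and 5.46% lower. The groups overlapped for all 10 genes, while 0.850% of all genes tested did not overlap, 0.437% with APP/PS1 higher and 0.413% lower. DESeq2 called 0 of the 7, where it called 1.54% of all genes, and edgeR called 0, where it called 0.0486%. In a fit with genes down to a mean of 1, which called 0.0421% of genes, 0 of the 10 were called. Without APP/PS1 female 3 limma called 256 genes in all, against 8 with it, and still 0 of the 10 genes.

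Ccl3 had the largest estimate, 1.67 ± 1.11 on the log2 scale (SE; limma adjusted p = 0.658). It was 2.87 by edgeR (unadjusted p = 0.0276, adjusted p = 0.429) and 2.92 by DESeq2 (unadjusted p = 0.0107, adjusted p = 0.227), which are over 1.5 times the limma value. It had 0, 10.3 and 119 normalized counts in APP/PS1 libraries (lowest, median, highest), against 0, 1.61 and 7.92 in littermates. 4 of the 6 APP/PS1 libraries lay above all littermates, and the other 2 held 0 and 1 reads. Without APP/PS1 female 3 the range of the other 5 was 0 to 31.0 normalized counts with a mean of 10.5 ± 12.5 (SD, n = 5), against 3.20 ± 3.42 in littermates (SD, n = 6), and Ccl3 no longer passed the filter.

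Cxcl10 had 0, 11.3 and 113 normalized counts in APP/PS1 libraries (lowest, median, highest), against 1.95, 13.8 and 22.4 in littermates. Only APP/PS1 female 3 lay above the littermates, and the log2 fold change was 0.08 ± 1.01 with it and -0.67 ± 0.883 without it (SE, limma). With it, edgeR gave 0.76 and DESeq2 0.75. Icam1 had 70.1, 104 and 299 normalized counts in APP/PS1 libraries, against 47.8, 89.05 and 133 in littermates, and again only APP/PS1 female 3 lay above the littermate range. The log2 fold change of Icam1 was 0.42 ± 0.337 with that library and 0.11 ± 0.236 without it (SE). Cxcl16 had 41.7, 53.6 and 162 normalized counts in APP/PS1 libraries, against 51.2, 68.3 and 102 in littermates, with a log2 fold change of -0.02 ± 0.320 with that library and -0.28 ± 0.254 without it (SE).

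Csf1 had 802, 1027 and 1710 normalized counts in APP/PS1 libraries (lowest, median, highest), against 888, 1137 and 1410 in littermates, and its log2 fold change was -0.06 (95% limits -0.40 and 0.28). Cxcl12 had 2239, 3286 and 3734 normalized counts in APP/PS1 libraries, against 2739, 3064 and 3370 in littermates, and its log2 fold change was -0.01 (95% limits -0.27 and 0.26). Cx3cl1 had 23073, 30289 and 34623 normalized counts in APP/PS1 libraries, against 24690, 27037 and 29857 in littermates, and its log2 fold change was 0.08 (95% limits -0.15 and 0.31). The APP/PS1 values of each of these 3 genes reached below and above the littermate range. Without APP/PS1 female 3, Csf1 stood at -0.16 ± 0.143, Cxcl12 at 0.08 ± 0.108 and Cx3cl1 at 0.14 ± 0.103 (SE).

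Ccl2, Ccl4 and Ccl5 stayed under the filter. In APP/PS1 libraries other than female 3 they reached at most 7.58, 7.28 and 1.04 normalized counts, against at most 8.71, 17.1 and 8.88 in littermates, and APP/PS1 female 3 held 40.7, 22.3 and 42.7. The exact permutation test within sex, two-sided, gave p = 0.79 for Ccl2, 0.95 for Ccl4 and 0.985 for Ccl5 over all 12 libraries.

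Microglia markers summed to 397 to 1211 CPM in APP/PS1 libraries and 404 to 495 CPM in littermates, with all 12 markers present in both groups, and their part was not tested. The interferon signature was positive for 14 of 20 genes, its median was 0.21 on the log2 scale, and it was positive for 10 of 19 with a median of 0.01 without APP/PS1 female 3. With that library edgeR and DESeq2 each gave 19 of 20 positive, with a median of 0.34. Ifit1 and Irf7 led it, at 0.88 ± 0.355 and 0.74 ± 0.420 (SE), and at 0.60 and 0.31 without that library. Among other genes induced by NF-kB, 9 of 20 were positive with a median of -0.04, and 8 of 20 with a median of -0.06 without APP/PS1 female 3. Birc3, an inhibitor of apoptosis induced by NF-kB, stood at 0.64 ± 0.259, and Tnfaip3, or A20, which restrains NF-kB, at -0.42 ± 0.171 (SE).

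Of 10 other chemokines tested 8 were negative with a median of -0.24, and 7 of 10 with a median of -0.19 without APP/PS1 female 3, among them Pf4 at -0.99 ± 0.535 and Cxcl5 at -1.44 ± 0.889 (SE). Receptors were positive for 7 of 13 genes, and for 5 of 12 without APP/PS1 female 3, with Ccr10 at 1.35 ± 0.663 and Ackr3, the scavenger receptor of Cxcl12, at -0.21 ± 0.111 (SE). Integrin, adhesion and sheddase genes were positive for 8 of 15, and without APP/PS1 female 3 for 5 of 15. Icam5, a neuronal relative of Icam1, stood at -0.33 ± 0.153, and Itga4 at -0.57 ± 0.328 (SE). Limma, edgeR and DESeq2 called no gene of the 5 lists in APP/PS1 against littermate mice.

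**Figure D4:**
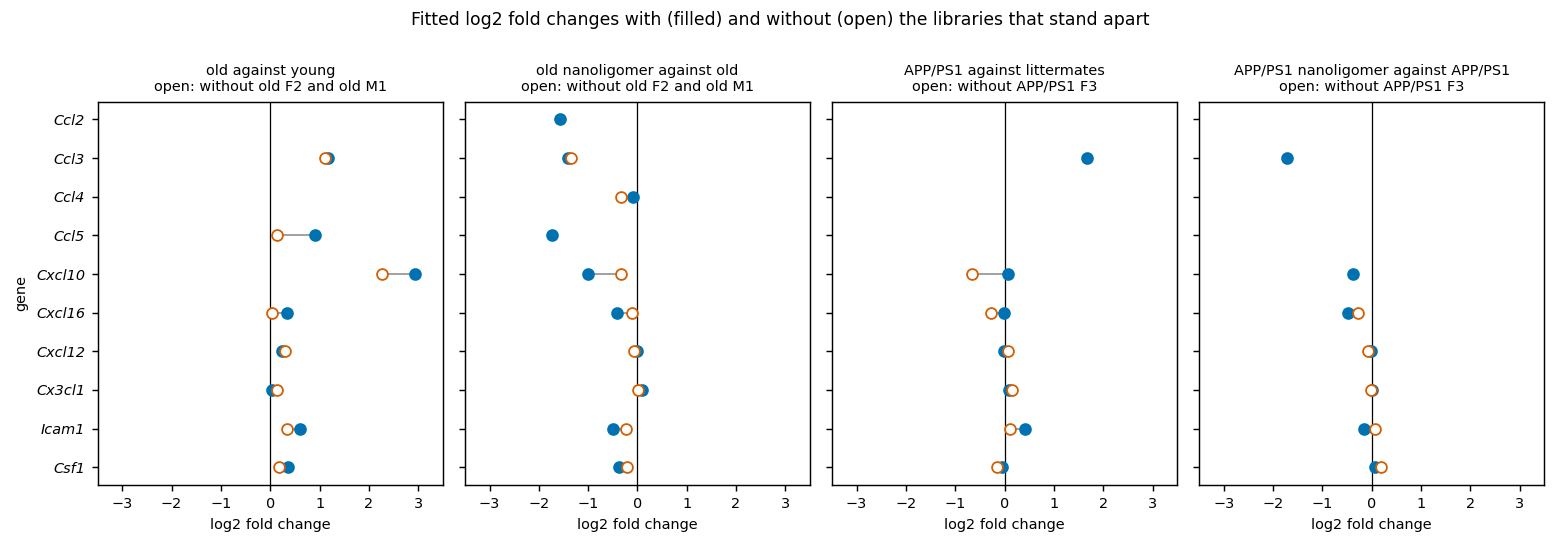
Fitted log2 fold changes of the 10 genes with all libraries kept (filled) and without the libraries that stood apart (open), in the 4 comparisons; grey lines join the 2 values of a gene, and a gene under the filter has no point. In old against young mice Ccl5 lies at 0.90 filled and 0.14 open and Cxcl10 at 2.94 filled and 2.27 open, and in APP/PS1 against littermate mice Cxcl10 lies at 0.08 filled and -0.67 open.

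The fourth comparison set APP/PS1 nanoligomer mice against APP/PS1 mice, which it shares with the third. Of the 7 genes over the filter, 5 estimates were negative and 2 positive, their median was -0.17 on the log2 scale, and 0 were called, where limma called 0% of the 16124 genes tested. Ccl3 and Cxcl10 passed the filter only through APP/PS1 mice, at means of 21.5 and 19.6 normalized counts, against 2.22 and 6.30 in treated mice. By limma, no gene of the 7 had an unadjusted p under 0.05, against 2.96% of all genes tested, 1.45% higher and 1.51% lower, and 49.4% of all genes had a positive estimate. DESeq2 called 0 of them, where it called 0.0434% of all genes, and edgeR called 0, where it called 0%. The groups overlapped for all 10 genes, while 0.310% of all genes tested did not overlap, 0.155% in each direction.

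Ccl3 had 0.653, 0, 3.27, 5.95 and 1.22 normalized counts in the 5 APP/PS1 nanoligomer libraries, against 0, 7.80 and 89.0 in APP/PS1 libraries (lowest, median, highest). All 5 treated libraries lay below the median of the APP/PS1 libraries, of which 2 lay as low as the treated ones. The log2 fold change of Ccl3 was -1.72 ± 1.15 (SE; limma adjusted p = 0.997). It was -2.95 by edgeR (unadjusted p = 0.0629, adjusted p = 0.995) and -3.20 by DESeq2 (unadjusted p = 0.0134, not called after adjustment). Without APP/PS1 female 3 the Ccl3 means were 2.22 ± 2.42 in treated and 7.95 ± 9.45 in APP/PS1 libraries (SD, n = 5 each), under the filter. Cxcl10 had 8.48, 15.6, 1.96, 2.98 and 2.44 normalized counts in the 5 APP/PS1 nanoligomer libraries, against 0, 8.55 and 84.7 in APP/PS1 libraries. The treated Cxcl10 values lay within the APP/PS1 range, with a log2 fold change of -0.37 ± 0.882 (SE) by limma, -1.35 by edgeR and -1.34 by DESeq2. Without APP/PS1 female 3 the Cxcl10 means were 6.30 ± 5.85 in treated and 6.61 ± 5.46 in APP/PS1 libraries (SD, n = 5 each).

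Cxcl16 had 52.9, 48.9, 22.9, 34.96 and 23.8 normalized counts in the 5 APP/PS1 nanoligomer libraries, against 31.4, 40.6 and 121 in APP/PS1 libraries. 2 of the treated values lay below all APP/PS1 ones, and the log2 fold change was -0.48 ± 0.363 with APP/PS1 female 3 and -0.28 ± 0.323 without it (SE). Icam1 had 112, 54.7, 65.5, 64.7 and 96.4 normalized counts in the 5 APP/PS1 nanoligomer libraries, against 52.9, 78.6 and 223 in APP/PS1 libraries. All treated Icam1 values lay within the APP/PS1 range, and the log2 fold change was -0.17 ± 0.347 with APP/PS1 female 3 and 0.07 ± 0.260 without it (SE).

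The remaining genes gave estimates near 0. The log2 fold change was 0.07 for Csf1 (95% limits -0.32 and 0.46), -0.01 for Cxcl12 (95% limits -0.29 and 0.28) and 0.01 for Cx3cl1 (95% limits -0.26 and 0.29). Without APP/PS1 female 3, Csf1 stood at 0.18 ± 0.150, Cxcl12 at -0.07 ± 0.123 and Cx3cl1 at -0.02 ± 0.130 (SE). Ccl2 and Ccl5 each had reads in only 1 of the 5 treated libraries, at most 2 of them, and Ccl4 reached 4.27 normalized counts there. The exact permutation test within sex, two-sided, gave p = 0.25 for Ccl2, 0.60 for Ccl4 and 0.85 for Ccl5. Microglia markers summed to 413 to 440 CPM in treated libraries, against 397 to 1211 CPM in APP/PS1 libraries, with all 12 markers present. The 10 choroid plexus markers summed to 64.1 to 4029 CPM in treated libraries, against 18.6 to 63.6 CPM in APP/PS1 libraries, with no overlap. The part of these markers was not tested.

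The interferon signature was negative for 16 of 19 genes with a median of -0.37, and for 13 of 19 with a median of -0.11 without APP/PS1 female 3. Rsad2, or viperin, averaged 27.3 ± 9.89 normalized counts in APP/PS1 nanoligomer (SD, n = 5) and 51.9 ± 14.9 in APP/PS1 libraries (SD, n = 6), and its log2 fold change was -0.90 ± 0.294 with and -0.80 without that library. Oas2 stood at -1.32 ± 0.524 with and -1.05 without it. Tnfaip3 stood at 0.51 ± 0.203 and Nfkbie at -0.54 ± 0.250 among 20 NF-kB induced genes, 10 of them positive, and 11 of 20 without that library. Integrin, adhesion and sheddase genes were negative for 12 of 15, and for 6 of 15 without APP/PS1 female 3, with Itgax at -1.88 ± 0.816 and Itgb1 at -0.18 ± 0.0985. Of 11 receptors 7 were negative (median -0.14), and 5 of 11 (median 0.04) without APP/PS1 female 3, with Ackr3 at 0.29 ± 0.116 and Ackr4 at 0.42 ± 0.269. Of 7 other chemokines 4 were positive, and 3 of 7 without that library, with Ccl17 at 0.68 ± 0.367 and Ccl9 at -0.31 ± 0.441 (log2 fold changes ± SE). Limma, edgeR and DESeq2 called no gene of the 5 lists.

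The treatment effects in the 2 arms were compared in a joint fit of 23 libraries that share none. The effect in APP/PS1 mice minus that in old mice was 0.46 for Csf1 (95% limits -0.06 and 0.97; limma adjusted p = 0.918), 0.63 for Cxcl10 (95% limits -1.68 and 2.94), 0.33 for Icam1 (95% limits -0.57 and 1.24) and -0.31 for Ccl3 (95% limits -2.95 and 2.33) on the log2 scale. It was -0.05 for Cxcl16, 0.01 for Cxcl12 and -0.08 for Cx3cl1. Of the 7 genes tested 0 were called, where 0% of the 15990 genes were called and 4.35% had an unadjusted p under 0.05.

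Nfkb1 and Nlrp3, the genes behind the named targets, had overlapping ranges in treated and control groups. Nfkb1 had 14.96 to 21.3 CPM in old nanoligomer and 19.0 to 23.1 CPM in old libraries, and 17.2 to 23.5 CPM in APP/PS1 nanoligomer and 15.7 to 25.3 CPM in APP/PS1 libraries. Nlrp3 had 0.957 to 2.45 CPM in old nanoligomer and 0.543 to 2.28 CPM in old libraries, and 0.753 to 1.996 CPM in APP/PS1 nanoligomer and 1.004 to 2.74 CPM in APP/PS1 libraries.

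Females and males were compared by the interaction of group and sex. In old nanoligomer against old mice the log2 fold change of Icam1 was -0.95 ± 0.311 in males and -0.05 ± 0.311 in females (SE, n = 3 each), and that of Ccl2 was -2.72 ± 1.03 in males and -0.41 ± 1.03 in females. The male effect minus the female effect was -0.90 for Icam1 (95% limits -1.86 and 0.06) and -2.31 for Ccl2 (95% limits -5.49 and 0.87), both with a limma adjusted p of 0.914. In APP/PS1 against littermate mice the log2 fold change of Cxcl10 was -1.69 ± 1.29 in males and 1.85 ± 1.29 in females (SE), the group that holds APP/PS1 female 3, with a difference of -3.54 (limma adjusted p = 0.847). No gene of the 10, and no gene of all tested, was called for a sex difference in the 4 comparisons, where 4.39%, 4.71%, 5.10% and 4.52% of all genes had an unadjusted p under 0.05 in their order here.

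Lastly, the genes that varied most like each of 7 of the 10 genes were read across the 35 libraries. The measure was Pearson's r of log2(CPM + 0.1) after the mean of each group and sex had been taken off, over 15968 other genes. It describes libraries that share tissue, preparation and sequencing, and no test was made. Cx3cl1 had the closest neighbours, Dmtn at r = 0.96, Dact2 at 0.94 and Kcnj4 at 0.94, and without APP/PS1 female 3 they stood at 0.95, 0.94 and 0.93. Csf1 varied with Cnn3 at 0.84, Hnrnpf at 0.84 and Cxcr4 at 0.83, and without that library these stood at ranks 3, 4 and 5. Cxcl16 varied with Nckap1l at 0.82, Smu1 at 0.78 and Pank3 at 0.77, and Icam1 with Gpr35 at 0.80, Pros1 at 0.80 and Arpc1b at 0.79. Without APP/PS1 female 3, Nckap1l stood at rank 11, Smu1 at 2 and Pank3 at 3, and Gpr35 at rank 1, Pros1 at 3 and Arpc1b at 12.

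Cxcl10 varied most like Ifitm3 at 0.81, AI607873 at 0.78 and the complement component C3 at 0.77, and Ifitm3 remained its nearest gene without APP/PS1 female 3 at 0.75. Ccl3 varied most like Evi2b at 0.78, Mki67 at 0.76 and Ly86 at 0.75, and without that library Mki67 and Ly86 stood at ranks 49 and 181. Cxcl12 varied with 1700001O22Rik at 0.75, Cd164l2 at 0.71 and Cntnap1 at 0.70, and without that library these stood at ranks 3, 22 and 24. No gene of the 10 was among the 3 nearest of another. Within the set, Cx3cl1 and Csf1 ran opposite to each other at r = -0.64, and at -0.61 without APP/PS1 female 3. Cxcl16 and Icam1 gave 0.54 with that library and 0.33 without it, and Ccl3 and Cxcl10 gave 0.45 with it and 0.21 without it.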

How the data were processed

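Hippocampal RNA was sequenced from polyadenylated libraries, per the labels' protocols. Per the submitters' processing notes, STAR, DESeq2 and mm10 (GRCm38) were used. Which read counter, annotation, strand setting and versions were used is not given in the sources used here. As deposited, each value is a signal: a count that the authors divided by a size factor per library, in 4 tables of 12 libraries each that were scaled apart. Whole reads were recovered by dividing by each library's step (100% of values within 0.001 reads of a whole number), and 12 libraries that stand in 2 tables had identical reads in both. The number of value columns not used is 0. For 1 sample, male 3 of the treated APP/PS1 mice, title and column name differ by a letter.

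Each table was fitted alone with limma 3.58.1 in R 4.3.3 on log2(normalized count + 1), so a fold change understates that of low genes, with sex and group, an intensity trend and Benjamini-Hochberg adjustment over all genes with a mean of at least 10. Those of the 10 genes under this filter had exact permutation tests within sex, with p unadjusted. edgeR 4.0.16 and DESeq2 1.42.0 on recovered reads were alternatives, with other filters, pseudocounts and scalings, no sex term, a replicate block and each library left out. Female 3 of the treated APP/PS1 group was left out for its low depth. The fit was also run on simulated counts, but the outcome is not given here, so its power is not stated. The 10 genes, the lists and the rule for named genes were chosen with earlier results of these data known: all 10 genes, per list the called genes and the 2 with the smallest p in each comparison, and the 3 genes that vary most like each. Leaving out APP/PS1 female 3 in the lists, or old female 2 with old male 1, was chosen after seeing the data. Promoters are from RefSeq on GRCm38.p6; intervals cover counting or sampling error only.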

Additional observations from a re-analysis of the deposited data

Results flagged for a closer look

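In APP/PS1 mice, female 3 lay farther above the other 5 libraries of its group than Dixon's 95% critical value allows for 7 of the 10 genes. Its values were 1.13 CPM for Ccl2, 3.30 CPM for Ccl3, 0.618 CPM for Ccl4, 1.18 CPM for Ccl5, 3.14 CPM for Cxcl10, 4.49 CPM for Cxcl16 and 8.28 CPM for Icam1. In 3 further groups a library of very few reads stood above the others: young male 1 with 0.0970 CPM of Ccl2 (4 reads), treated APP/PS1 female 1 with 0.0236 CPM of Ccl2 (1 read) and treated APP/PS1 male 2 with 0.0512 CPM of Ccl5 (2 reads). These are 10 of 60 groups looked at, and 7 of the 10 come from the same library. A chance rate of about 1 in 20, or 3 groups, would hold for independent, normally distributed values. Groups with mostly 0 reads are not of that kind, so the 10 cannot be weighed against the 3. The shallow library of treated APP/PS1 female 3, which no comparison uses, held 24.1 CPM of Cxcl16, above every APP/PS1 library, from 22 reads.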

How the results depend on the processing

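No alternative with limma or edgeR called any of the 10 genes, and leaving out each library in turn gave 0 calls among them throughout the 4 comparisons. DESeq2 called 2 in old against young mice. Of the 343 log2 fold changes under other settings 329 kept their direction and side of the threshold, and of the 372 with a library left out 334 did. In old against young mice the exact test on normalized counts gave an unadjusted p of 0.005 for Ccl2 and 0.04 for Ccl4. On the log2 scale only Ccl2 stayed under 0.05 (1 gene), and Ccl4 had a difference of 1.41. The share of all genes that would pass this test was not computed, so neither p is set against a background. In APP/PS1 against littermate mice Ccl4 turned to -0.045 and Ccl5 to -0.73 on the log2 scale.

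Some estimates turned, and the cause was not tested. In APP/PS1 against littermate mice, Cxcl10 turned to -0.037 with a pseudocount of 0.5, Cxcl16 to 0.10 with edgeR and 0.11 with DESeq2, and Cxcl12 to 0.010 with edgeR and 0.012 with DESeq2. In APP/PS1 nanoligomer against APP/PS1 mice, Cxcl12 turned to 0.020 without the sex term. With the shallow female 3 included, Cxcl16 turned to 0.067, Cx3cl1 to -1.65 and Csf1 to -1.57, while the median over all genes moved to -0.68. With a library left out, the range in old against young mice was -0.084 to 0.13 for Cx3cl1, and in old nanoligomer against old mice -0.50 to 0.31 for Ccl4 and -0.051 to 0.048 for Cxcl12. In APP/PS1 against littermate mice it was -0.67 to 0.81 for Cxcl10, -0.28 to 0.15 for Cxcl16, -0.085 to 0.078 for Cxcl12 and -0.18 to 0.012 for Csf1. In APP/PS1 nanoligomer against APP/PS1 mice it was -0.34 to 0.075 for Icam1, -0.069 to 0.082 for Cxcl12, -0.046 to 0.094 for Cx3cl1 and -0.010 to 0.19 for Csf1.

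With the replicate number as a block, 0 of the 10 genes were called in each comparison. The block called 1 gene of all in old against young mice, against 6 without it, and 10 in APP/PS1 against littermate mice, against 8 without it. In APP/PS1 nanoligomer against APP/PS1 mice, where APP/PS1 female 3 carried no information because its treated partner was left out, it turned Cxcl10 to 0.11, Cx3cl1 to -0.021 and Icam1 to 0.075. Same-numbered libraries did not all deviate together (r from -0.25 to 0.29). In the order of the comparisons, a library correlated best with its own number in 2, 1, 4 and 3 cases of 6, 6, 6 and 5. With so few pairs, this check cannot decide whether the numbers pair the libraries.

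All genes called by DESeq2 numbered 123, 2, 253 and 7 in the order of the comparisons above, against 6, 0, 8 and 0 by limma. Without old female 1 limma called 1 gene of the interferon signature in old against young mice, and without APP/PS1 female 3 it called 256 genes of all in APP/PS1 against littermate mice. Depth limits Ccl2, Ccl4 and Ccl5, where single reads move a library.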
